A study of Mus musculus with 2 samples.

Results

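The neighbourhoods of microRNA genes were examined in 2 chromatin immunoprecipitation sequencing libraries of mouse fibroblasts, which the labels describe in one place as a 3T3 line transduced with the tagged cyclin and in another as stably transfected embryonic fibroblasts (MEFs). The members were the annotated genes of type miRNA on the autosomes and the X chromosome in GENCODE M1 on NCBIM37 (mm9), which number 1576 of 37252 annotated genes of every type. Each was taken with 500 bp on either side and with the 5 kb upstream of its 5′ end on its own strand. They were chosen by annotation alone, with no measured value. Both libraries came from the same kind of cells, which lack the endogenous cyclin D1 gene (Ccnd1-/-) and carry FLAG-tagged cyclin D1 from an MSCV retroviral vector; no untagged or Ccnd1-expressing cells were among the samples. One library was precipitated with the M2 anti-FLAG antibody and the other, the control, with normal mouse IgG. The tagged protein is therefore driven by the vector and not by the Ccnd1 promoter, and whether the cells were 1 clone or a pool is not given in the sources used here.

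A miRNA is cut from a longer primary transcript by Drosha and Dicer, and its bases 2 to 8, the seed, pair with target messenger RNAs. Many miRNA genes lie in introns or exons of a host gene and are transcribed from the host's promoter, while others have a promoter of their own that can lie kilobases upstream of the hairpin. Cyclin D1 is the regulatory partner of CDK4 and CDK6 and has no DNA-binding domain of its own. It has also been found on chromatin, and in human breast cancer cells it was reported at the promoter of the miR-17-92 cluster, whose miR-17 and miR-20a in turn target cyclin D1 messenger RNA. The comparison here asks where anti-FLAG tags exceeded IgG tags around miRNA genes.

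The anti-FLAG library held 9259840 tags and the IgG library 9312346 tags, all 36 bp long, and within each library no position and strand occurred more than once. That depth gave 3.62 anti-FLAG and 3.64 IgG tags per kb of sequence, or about 4 tags in the window of a typical miRNA gene. Introns 1 to 3 of Ccnd1, 4860 bp in all, held 1 anti-FLAG and 1 IgG tag against 17.6 and 17.7 tags at the genome mean. With 1 library per antibody there is no replicate check. Every p-value compares these 2 libraries and not the conditions, and intervals cover counting error only.

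The mature miRNAs whose genes the results turn on are shown first, 5′ to 3′ with the seed in capitals, as given by RefSeq (GRCm38.p6). Those of the miR-17-92 cluster on chromosome 14 share seeds in pairs, miR-17-5p with miR-20a-5p and miR-19a-3p with miR-19b-3p, while miR-18a-5p and miR-92a-3p stand alone.
miR-17-5p: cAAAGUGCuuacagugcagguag
miR-20a-5p: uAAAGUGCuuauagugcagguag
miR-18a-5p: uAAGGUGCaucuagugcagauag
miR-19a-3p: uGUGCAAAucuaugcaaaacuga
miR-19b-3p: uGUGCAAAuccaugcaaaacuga
miR-92a-3p: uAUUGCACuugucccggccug
Those below come from genes with an anti-FLAG excess in the 5 kb upstream. miR-125a-5p and miR-125b-5p have the same seed although their genes lie on chromosomes 17 and 9, and so have miR-132-3p and miR-212-3p, which are neighbours on chromosome 11. miR-100-5p, whose gene was not called, is shown because it has the seed of miR-99b-5p.
miR-21a-5p: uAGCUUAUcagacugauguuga
miR-125b-5p: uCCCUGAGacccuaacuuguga
miR-125a-5p: uCCCUGAGacccuuuaaccuguga
miR-99b-5p: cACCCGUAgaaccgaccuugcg
miR-100-5p: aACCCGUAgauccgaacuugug
miR-22-3p: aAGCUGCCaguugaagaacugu
miR-132-3p: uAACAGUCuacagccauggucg
miR-212-3p: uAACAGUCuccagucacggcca

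Around the miRNA genes as a whole the anti-FLAG library differed little from IgG. The merged windows of all 1576 genes held 6283 anti-FLAG and 5366 IgG tags over 1561045 bp, a ratio of 1.18 (95% interval 1.14 to 1.22) after IgG was scaled by library size. Distant genomic windows of the same GC content gave an expected ratio of 1.08. The median gene had 4 anti-FLAG and 3 IgG tags. Its log2 ratio, with 1 tag added to each library, was 0.01, against 0.49 for all annotated genes in a window of the same width at their 5′ end and 0.80 for protein-coding genes. In the 5 kb upstream the median miRNA gene had 18.5 anti-FLAG and 18 IgG tags, with a log2 ratio of 0.06, against 0.15 over all genes.

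The members were unequal in how far they could be measured. The annotation named 550 with a miRNA symbol and the other 1026 by a genomic clone, and 513 matched a RefSeq hairpin by sequence, 116 of the clone-named genes among them. In 443 windows under 80% of the 36-base sequences occurred once in the genome, and 350 of these belonged to clone-named genes. No tag of either library lay in 73 windows, 70 of which were among those 443. For 1067 miRNA genes the window held fewer than 10 tags in both libraries together, so 509 entered the test within 500 bp, while 1482 entered the test of the 5 kb upstream. Near a symbol-named gene the pooled ratio was 1.29 (1.21 to 1.37), and near a clone-named gene it was 1.12 (1.07 to 1.17). The ratios expected from GC were 1.113 and 1.058. Divided by that expectation, the ratios were 1.155 (1.085 to 1.23) and 1.06 (1.014 to 1.109), with overlapping intervals.

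By location in or between genes, 1 group, that in sense exons, had a ratio apart from the others. The 100 miRNA genes in an exon of a protein-coding gene on the same strand had 592 anti-FLAG and 345 IgG tags, a ratio of 1.73 (1.51 to 1.98). Their windows had a median GC content of 53.0%, and the ratio expected from GC was 1.29. Divided by that expectation the ratio was 1.34 (1.17 to 1.53). That interval overlapped those of the antisense genes, up to 1.20, and of the genes in other genes, up to 1.21. Some exonic members, such as Mir3960 and AC126679.1, also lie within 1 kb of the start of a protein-coding gene, and the 2 traits were not separated. The 470 genes in a sense intron had 1787 anti-FLAG and 1643 IgG tags and a ratio of 1.09 (1.02 to 1.17), at a median GC content of 41.7%. Ratios were 1.19 for the 207 genes antisense to a protein-coding gene, 1.16 for the 707 intergenic genes and 1.17 for the 92 in other genes. The intervals of these 3 groups overlapped each other and that of the sense introns.

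The 85 miRNA genes within 1 kb of a protein-coding transcription start site (TSS) stood above the remaining 1491. Their windows held 691 anti-FLAG and 258 IgG tags, or 7.82 and 2.92 tags per kb, a ratio of 2.69 (2.33 to 3.12). The windows of the other miRNA genes held 5603 anti-FLAG and 5111 IgG tags, or 3.80 and 3.47 tags per kb, a ratio of 1.10 (1.06 to 1.15), and the 2 intervals did not overlap. GC content moved with this difference: the median window was 60.6% GC near a TSS and 43.7% elsewhere, and the ratios expected from GC were 1.55 and 1.06. Divided by that expectation, the ratio was 1.74 (1.5 to 2.01) near a TSS and 1.04 (1.00 to 1.08) elsewhere. At the 1-kb limit the members just inside were Mir130b at 964 bp with 3 anti-FLAG and 2 IgG tags, Mir34c at 956 bp with 6 and 8, and CT010508.1 at 953 bp with 11 and 2. Among those outside the limit were Mir425 at 1031 bp with 13 and 5, Mir345 at 1090 bp with 8 and 5, and Mir125b-1 at 1185 bp with 16 and 7.

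In 500-bp bins the anti-FLAG excess near TSSs was largest in the bins closest to the miRNA gene. From 0 to 500 bp upstream these genes had 8.67 anti-FLAG and 3.02 IgG tags per kb, a ratio of 2.89 (2.35 to 3.57). The ratio was 1.60 (1.35 to 1.89) at 500 to 1000 bp and 1.06 (0.891 to 1.26) at 1500 to 2000 bp. Farther out it lay between 0.956 and 1.29. The IgG level was itself lower in the first bin than in the bin of 1000 to 1500 bp, where it was 6.32 tags per kb. Upstream of the other miRNA genes the ratio stayed between 1.05 and 1.13 in all 10 bins, with 3.83 to 4.15 anti-FLAG and 3.48 to 3.92 IgG tags per kb.

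**Figure D1:**
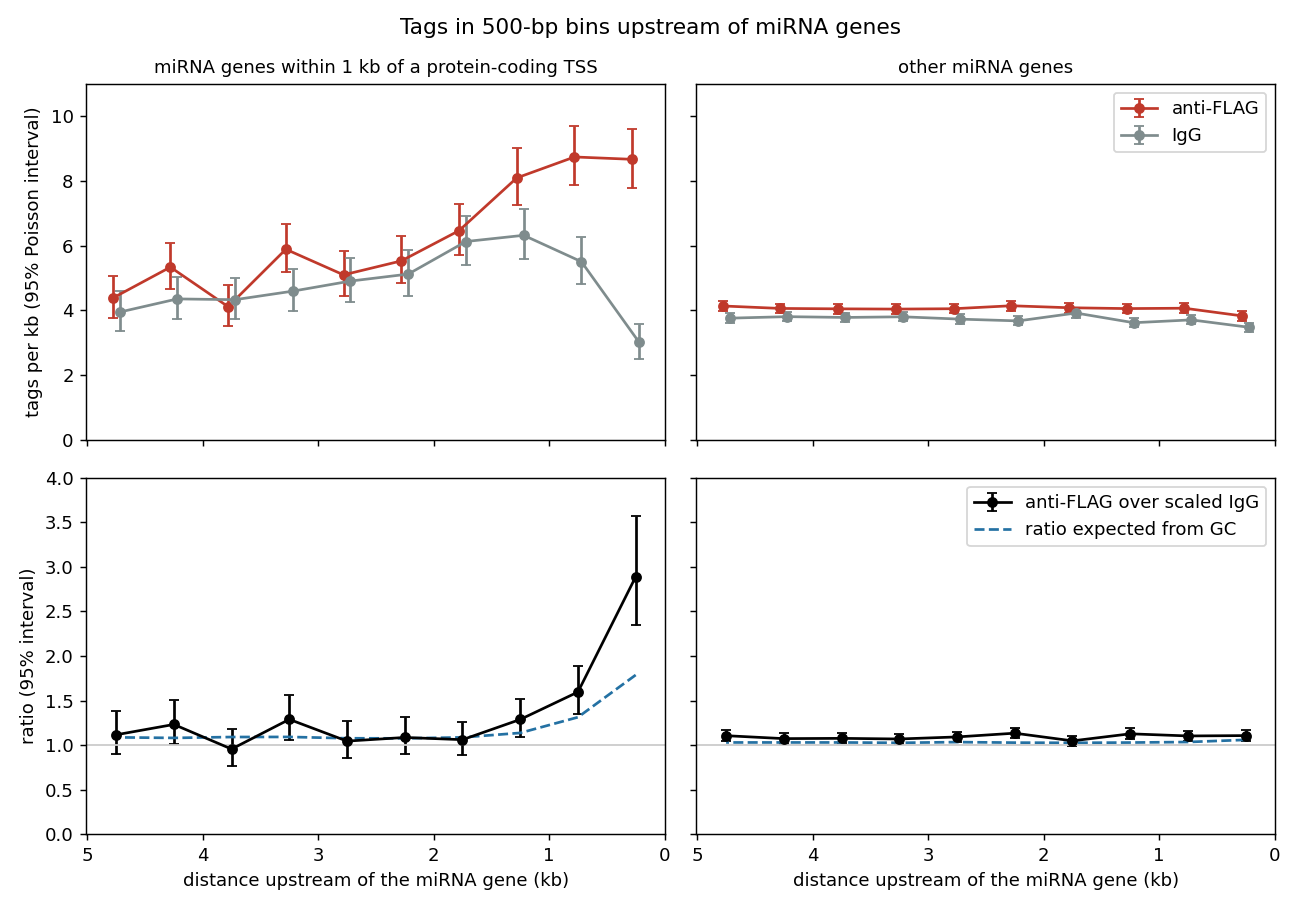
Tags per kb (top, with 95% Poisson intervals) and the anti-FLAG to scaled IgG ratio (bottom, with 95% intervals) in 500-bp bins, against the distance upstream of the miRNA gene in kb, for genes within 1 kb of a protein-coding TSS (left) and other miRNA genes (right). Near a TSS the ratio reached 2.89 in the closest bin and the dashed GC expectation 1.79, while the other genes stayed between 1.05 and 1.13.

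GC content ordered the miRNA windows in general. The 393 windows under 40% GC had 1328 anti-FLAG and 1627 IgG tags, a ratio of 0.821 (0.763 to 0.883). The 82 windows of 60% GC or more had 464 anti-FLAG and 142 IgG tags, a ratio of 3.29 (2.72 to 4.00). Windows over 10 kb from any gene start had 0.858 and 2.02 in the same classes. The anti-FLAG level per kb changed less over these classes, between 3.54 and 5.57 tags per kb, than the IgG level, which was 4.34 tags per kb under 40% GC and 1.70 at 60% or more. Of the 82 GC-richest windows, 46 lay within 1 kb of a protein-coding TSS. How much of the ratio in the richest class belongs to GC and how much to gene starts was not tested beyond the GC-corrected values given here.

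**Figure D2:**
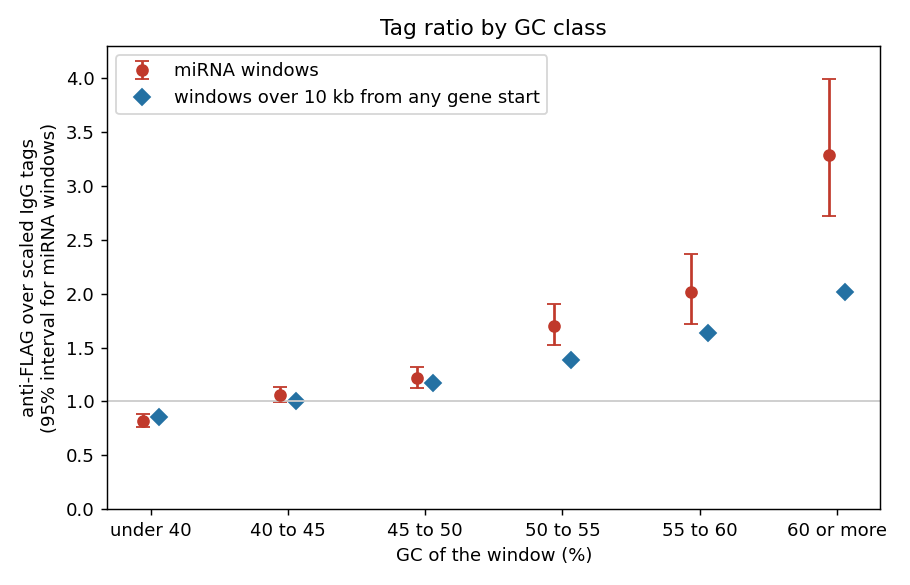
Anti-FLAG over scaled IgG tags against the GC content of the window (%), for miRNA windows (circles, 95% intervals) and for windows over 10 kb from any gene start (diamonds). The miRNA ratio goes from 0.821 to 3.29 and that of distant windows from 0.858 to 2.02 between the lowest and the highest class.

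Gene by gene, 19 miRNA genes had more anti-FLAG than IgG tags within 500 bp at an adjusted p below 0.05 and 1 had fewer (exact conditional binomial test, two-sided, Benjamini-Hochberg adjusted over all 15896 gene windows with at least 10 tags). Among all those windows 21.4% were called higher and 0.0818% lower, against 3.73% of the 509 miRNA windows tested called higher. Of the 19, 13 lay within 1 kb of a protein-coding TSS, where 46 windows were tested, and 6 did not, among 463 tested. The start windows of protein-coding genes themselves were called higher in 3009 of 11260 tested, or 26.7%, so 13 of 46 is near the share at gene starts in general. With the GC-expected ratio 0 of these 46 were called. At 2-fold or more without a test, 134 miRNA windows were higher, or 26.3% of those tested, against 54.2% of all windows. By the same rule 46 were lower, or 9.04%, against 4.03%. With the GC-expected ratio as the null value 1 miRNA gene was called, or 0.196% of those tested, against 0.723% of all windows. By that ratio 92 were at least 2-fold higher, or 18.1%, against 30.5%.

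The named genes higher within 500 bp were mostly at the start of a host or neighbouring gene. Mir5131 (chr14:46277636-46277728), in an exon of the phospholipase gene Ddhd1 and 90 bp from its TSS, had 14 anti-FLAG tags and 0 IgG tags, at least 4.69-fold higher at a floor of 3 counts in the IgG library (adjusted p = 0.00198, exact binomial test). Mir762 (chr7:134852001-134852076), antisense to Bcl7c, which encodes a chromatin-remodelling subunit, had 17 anti-FLAG and 1 IgG tags, a ratio of 17.1 with a wide interval of 2.68 to 715. Mir3091 (chr2:179992241-179992316), in an intron of the ribosomal protein gene Rps21, had 22 and 3 tags. Mir1903 (chr8:130883141-130883220), in an exon of Nrp1, a semaphorin and VEGF co-receptor, had 17 and 3. All 4 lay within 371 bp of the host's TSS. Their windows were 60.2% to 71.9% GC, and their adjusted p with the GC-expected ratio was 0.248 to 0.606.

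The other named genes reported here are clone-named. AL773548.1 and AL772404.1, which each lie on the annotated TSS of a neighbour (the hydroxylase gene Asph and the RNA-binding protein gene Hnrnpa3), had 13 anti-FLAG and 1 IgG tags each. So did AC152453.1, in an exon of the chaperone gene Hsp90b1. AC126679.1, at the Wdr96 and Itprip starts, had 21 and 5 tags. AC090489.1, antisense to Ankrd52, had 16 and 3. AL669828.1, in an intron of Samhd1, the gene of a dNTP hydrolase, had 22 and 6 at 1293 bp from the TSS. The ratios of these 6 genes lay between 3.69 and 13.1. None kept its call with the GC-expected ratio, where adjusted p was 0.142 to 0.532 and log2 ratios were 1.10 to 2.29. For AL669828.1, at 42.4% GC, the log2 ratio was 1.72 without and 1.70 with the correction, so its size hardly changed. The 7 genes called beyond the named ones had 10 to 28 anti-FLAG and 1 to 11 IgG tags.

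AC113316.1, far from a protein-coding TSS, kept its call with the GC-expected ratio. This clone-named gene (chr5:147072579-147072660) lies in an intron of Cdk8, which encodes the kinase of the Mediator complex, 29773 bp from its TSS. It had 58 anti-FLAG and 24 IgG tags, both far above the typical window, at a ratio of 2.43 (1.49 to 4.09) and 43.5% GC. The adjusted p was 0.00327 by the exact binomial test and 0.0382 with the GC-expected ratio, the single miRNA call that passed there. A region called around it, chr5:147072251-147073000, held 56 anti-FLAG and 21 IgG tags, and the one called with a GC-corrected background, chr5:147072251-147072750, held 26 and 6. The single gene called lower was AC113244.1, in an intron of the pantothenate kinase gene Pank1, with 2 anti-FLAG and 14 IgG tags (adjusted p = 0.0255, exact binomial test); with the GC-expected ratio its adjusted p was 0.111 and its log2 ratio -2.34, against -2.31 without it.

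Upstream windows hold more tags, and most could be tested. In the 5 kb upstream 38 miRNA genes were higher, which share 33 merged windows, and 1 was lower. That is 2.56% of the 1482 tested, close to the 2.53% of all 34752 upstream windows called higher, and 0.0806% of all were called lower. Of the 38, 21 had a protein-coding TSS in the 5 kb, as did 143 of the 1482 tested, and 17 had none. The lower gene was AL683878.1, with 8 anti-FLAG and 29 IgG tags at 39.0% GC. With the GC-expected ratio 2 miRNA genes were called higher, Mir21 and Mir125b-1. That is 0.135% of the 1482 tested, against 0.302% of all windows. Both genes belong to the list of fibroblast and mesenchymal miRNAs, and both were also called without the correction.

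Mir21 (chr11:86397569-86397660, minus strand), whose product is a growth-promoting miRNA abundant in fibroblasts, lies in an exon of Vmp1 and has its own promoter a few kilobases upstream inside that gene. Its 5 kb upstream held 101 anti-FLAG and 47 IgG tags, a ratio of 2.16 (1.52 to 3.12) at 43.5% GC. The adjusted p was 0.00209 by the exact binomial test, and 0.0158 with the GC-expected ratio. No protein-coding TSS lies within these 5 kb; the nearest is that of Tubd1, 39076 bp away. From the hairpin outward the 10 bins held 11, 9, 9, 9, 13, 22, 8, 12, 2 and 6 anti-FLAG tags, against 6, 6, 4, 3, 8, 4, 2, 6, 2 and 6 IgG tags. The 8 bins nearest the gene were higher in the anti-FLAG library and the last 2 were equal. The bin of 2500 to 3000 bp had the most anti-FLAG tags, and a region called there, chr11:86400001-86400750, had 28 anti-FLAG and 6 IgG tags with its centre 2715 bp upstream of the gene. The 300 bp with the most anti-FLAG tags, 17 against 3 IgG tags, are shown for their place in that region, on the strand of the gene with CG dinucleotides in capitals; 43.3% of the bases are G or C and 3 CG pairs occur.
Mir21 upstream, chr11:86400221-86400520, minus strand, mm9: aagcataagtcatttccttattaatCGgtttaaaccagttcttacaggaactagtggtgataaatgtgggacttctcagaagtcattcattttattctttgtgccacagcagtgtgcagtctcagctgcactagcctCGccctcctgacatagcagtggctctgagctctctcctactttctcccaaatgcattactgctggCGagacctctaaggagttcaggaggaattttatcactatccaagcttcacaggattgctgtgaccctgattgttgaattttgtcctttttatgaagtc

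Mir125b-1 (chr9:41390009-41390085, plus strand) encodes a miRNA of the lin-4 family, named after its Caenorhabditis elegans member, and lies in an intron of 2610203C20Rik. Its 5 kb upstream held 63 anti-FLAG and 22 IgG tags, a ratio of 2.88 (1.75 to 4.92) at 44.8% GC. The adjusted p was 0.00184 by the exact binomial test and 0.0186 with the GC-expected ratio. The bins held 8, 7, 9, 6, 9, 4, 4, 8, 3 and 5 anti-FLAG tags outward from the gene, against 5, 2, 0, 3, 1, 2, 1, 1, 6 and 1 IgG tags. The excess was spread over 9 of the 10 bins, and no region was called there. The host's TSS is 1185 bp from the gene. The densest 300 bp, with 12 anti-FLAG and 0 IgG tags, lie 2110 bp upstream of the gene and are 50% GC, with 4 CG pairs.
Mir125b-1 upstream, chr9:41387749-41388048, plus strand, mm9: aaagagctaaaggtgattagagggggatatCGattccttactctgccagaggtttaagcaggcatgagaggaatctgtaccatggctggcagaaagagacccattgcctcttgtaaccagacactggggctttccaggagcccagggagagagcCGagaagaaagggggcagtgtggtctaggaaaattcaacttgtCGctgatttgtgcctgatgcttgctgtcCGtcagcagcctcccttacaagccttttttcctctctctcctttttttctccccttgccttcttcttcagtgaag

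The other upstream calls among the 8 of smallest p were GC-rich and were not called with the GC-expected ratio. Mir483 (chr7:149840829-149840901), in an intron of the imprinted growth factor gene Igf2, had 31 anti-FLAG and 3 IgG tags, a ratio of 10.4 (3.24 to 53.1) and the smallest adjusted p of the miRNA genes, 2.77e-04 by the exact binomial test. It had no protein-coding TSS in the 5 kb, which were 60.7% GC, and its adjusted p with the GC-expected ratio was 0.166. Mir125a (chr17:17967767-17967851) and Mir99b (chr17:17967152-17967221), 2 miRNAs of one cluster at the start of Ncrna00085, had 53 and 52 anti-FLAG tags, against 14 and 16 IgG tags. Mir132 (chr11:74987167-74987267) and Mir212 (chr11:74986890-74986980), which CREB induces in neurons, share nearly the same upstream window, which holds the TSS of the repressor gene Hic1. They had 43 and 42 anti-FLAG tags, against 10 IgG tags each.

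Mir146b (chr19:46417252-46417360), which is induced by NF-κB and damps Toll-like receptor signalling, had 72 anti-FLAG and 25 IgG tags, with the TSSs of Cuedc2 and Tmem180 in its 5 kb. Mir22 (chr11:75277218-75277312), in an annotated exon of Tlcd2, had 74 and 28, and Mir425 (chr9:108471108-108471192), near Dalrd3 and Ndufaf3, had 41 and 9. Across Mir125a, Mir146b, Mir132, Mir425, Mir22 and Mir212 the ratio was between 2.66 and 4.58 and adjusted p between 5.75e-04 and 0.00164, and with the GC-expected ratio adjusted p was 0.153 to 0.526, at log2 ratios of 0.89 to 1.5, against 1.38 to 2.08 without it. Their windows were 52.1% to 61.3% GC. AL669828.1 and AC126679.1, called within 500 bp, were also called upstream. They had 61 and 54 anti-FLAG tags there, against 26 and 23 IgG tags, at 46.7% and 43.7% GC. The first 500 bp upstream lie in both windows, so the 2 calls of each gene share tags. Those 500 bp held 14 anti-FLAG and 2 IgG tags for AL669828.1, and 16 and 3 for AC126679.1. With the GC-expected ratio their adjusted p upstream was 0.126 for both by the exact binomial test. The log2 ratios were then 1.09 and 1.15, against 1.21 and 1.20 without it. The 26 remaining genes called higher had larger p than Mir21.

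**Figure D3:**
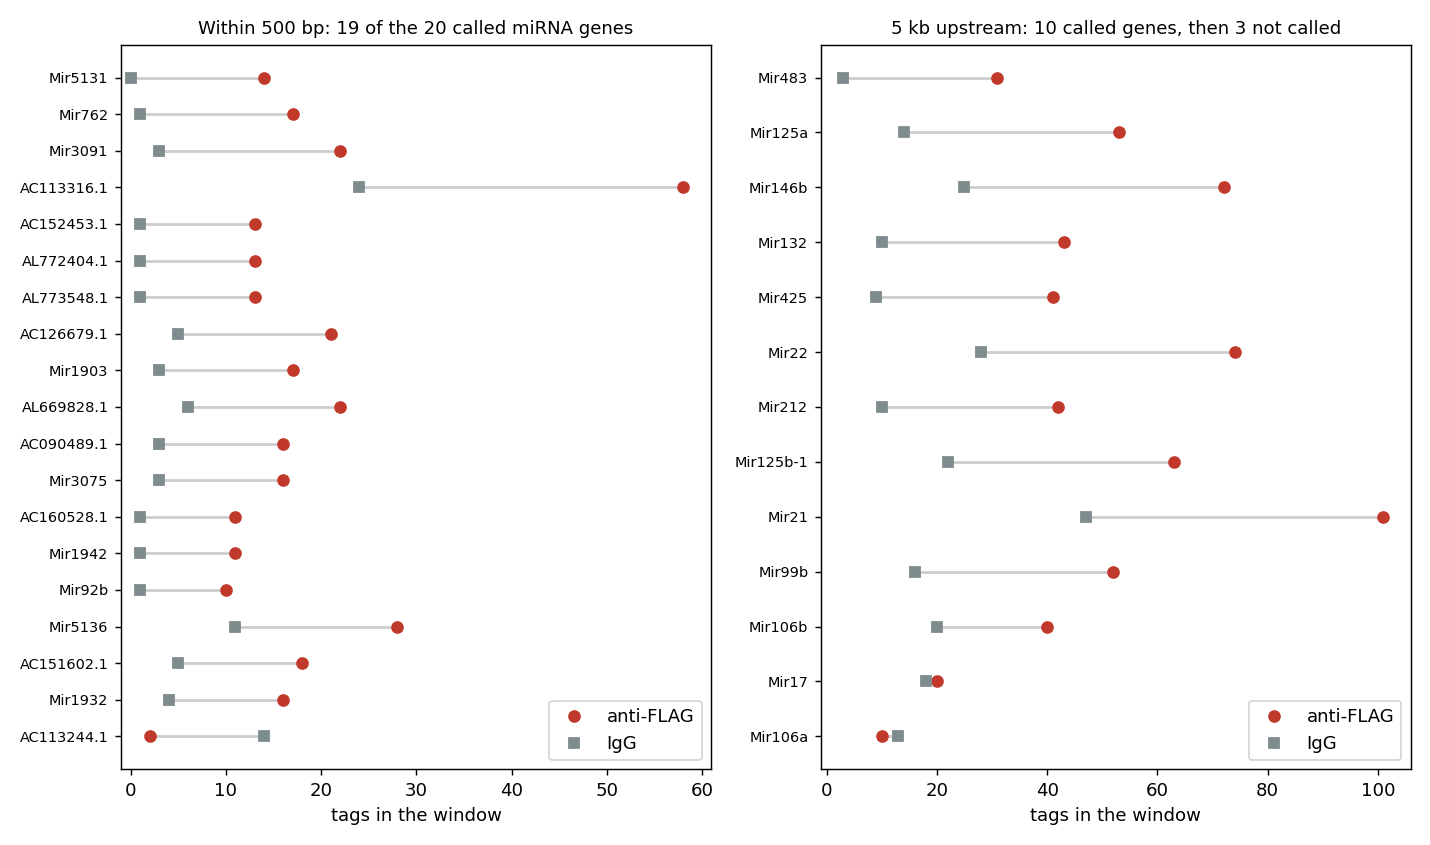
Tags per window (x axis) for single miRNA genes (rows), anti-FLAG as circles and IgG as squares: 19 of the 20 genes called within 500 bp (left), and the 10 of smallest adjusted p called higher in the 5 kb upstream, followed by Mir106b, Mir17 and Mir106a, which were not called (right). Mir21 had the most upstream anti-FLAG tags of those drawn, 101 against 47, while Mir17 had 20 against 18.

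The miR-17-92 cluster, the polycistron at which cyclin D1 was reported in human cells, gave no call in any window. Its 6 genes, Mir17, Mir18, Mir19a, Mir20a, Mir19b-1 and Mir92-1, lie between chr14:115442893 and 115443728 on the plus strand inside the noncoding host gene Mir17hg, over 47 kb from a protein-coding TSS, and their windows merge into 1 of 1836 bp. That window held 11 anti-FLAG and 13 IgG tags, a ratio of 0.851 (0.345 to 2.06). By gene the anti-FLAG tags were 6, 5, 5, 6, 8 and 9 in the order given, against 6, 8, 7, 9, 9 and 10 IgG tags, and these windows share tags. The 5 kb upstream of Mir17 held 20 anti-FLAG and 18 IgG tags, with an adjusted p of 0.973 by the exact binomial test. Over the joint upstream window of the cluster, 5756 bp, there were 25 and 24 tags, a ratio of 1.05 (0.574 to 1.92). GC content gave an expected ratio of 1.30 there, but that value includes the GC-rich stretch without tags described next.

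The bins upstream of Mir17 were nearly matched between the libraries. Outward from the gene they held 2, 3, 3, 0, 0, 0, 1, 6, 3 and 2 anti-FLAG tags, against 3, 3, 2, 0, 0, 0, 2, 4, 2 and 2 IgG tags. The 3 empty bins, chr14:115439893-115441392, end upstream of the annotated 5′ end of Mir17hg at 115442101 and are 83.4%, 80.8% and 77.4% GC. At the genome mean these 1500 bp would hold 5.43 anti-FLAG and 5.46 IgG tags. The highest GC class of distant windows, 2 percentage points wide from 68%, would give 5.01 and 1.09. These bins are richer in GC than that class, so its values are an extrapolation here. A count of 0 allows up to 3 tags, or 2 per kb, in each library. Of the 36-base sequences in the 5 kb, 99.6% occurred once in the genome. The libraries therefore give no comparison in this CG-rich stretch. Its 300 bp of highest GC content, 86.3% with 55 CG pairs and 0 tags in both libraries, are shown for comparison with the Mir21 and Mir125b-1 stretches.
Mir17 upstream, chr14:115440883-115441182, plus strand, mm9: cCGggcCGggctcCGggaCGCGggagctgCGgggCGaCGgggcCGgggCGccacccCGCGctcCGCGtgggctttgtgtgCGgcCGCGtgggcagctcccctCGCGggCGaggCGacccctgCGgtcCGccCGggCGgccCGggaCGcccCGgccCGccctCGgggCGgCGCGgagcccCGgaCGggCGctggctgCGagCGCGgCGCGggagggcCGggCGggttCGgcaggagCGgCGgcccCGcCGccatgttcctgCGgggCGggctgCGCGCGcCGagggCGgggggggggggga

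Each of the 3 printed stretches was searched on both strands for TGACTCA (AP-1), CACGTG (E-box), TTTCGCGC and TTTGGCGC (E2F) and TGACGTCA (CRE), and none had a match. Of 22350 protein-coding promoters of the same length, from 250 bp upstream to 50 bp downstream of the start, 4.42%, 7.79%, 0.362%, 0.680% and 2.33% held these motifs in the order given.

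**Figure D4:**
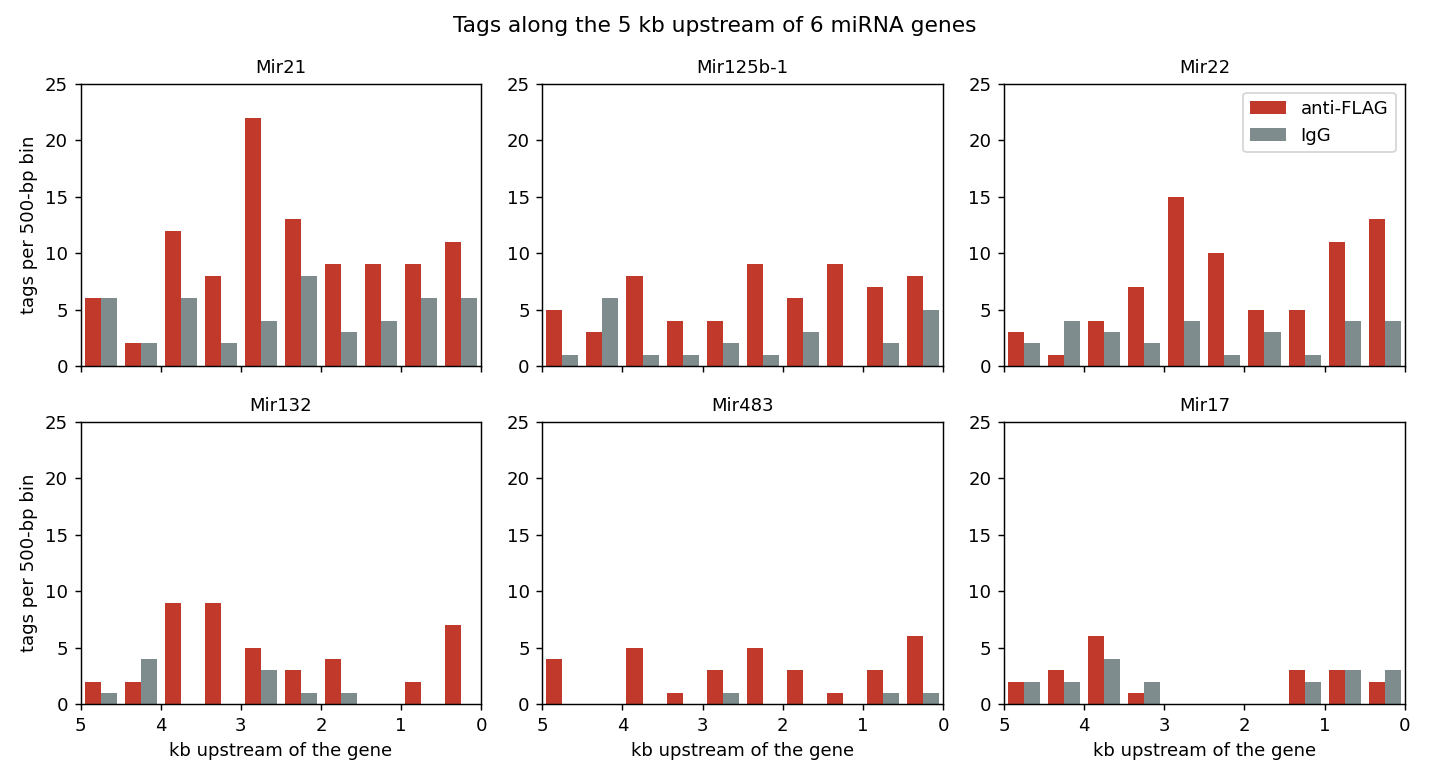
Tags per 500-bp bin (y axis) against the distance upstream of 6 miRNA genes in kb, anti-FLAG in red and IgG in grey. Mir21 has its highest anti-FLAG bin, 22 tags, at 2500 to 3000 bp, and Mir17 has 3 empty bins in both libraries from 1500 to 3000 bp.

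The paralogues of the miR-17-92 cluster gave no call either. Mir106b, Mir93 and Mir25, in an intron and exons of the replication helicase gene Mcm7 on chromosome 5, had 40, 39 and 37 anti-FLAG tags in the 5 kb upstream, against 20, 18 and 17 IgG tags, with adjusted p of 0.108 to 0.149 by the exact binomial test. Their upstream windows overlap and so do not give 3 separate results. No protein-coding TSS lies in these 5 kb, so the start of the host Mcm7 was not covered. The Mir106a-363 cluster on the X chromosome had 10 to 13 tags in each library over its 6 genes. Within 500 bp none of these 9 genes reached 10 tags.

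Lists of miRNAs by family and tissue showed few members called, here beside the 3.73% (within 500 bp) and 2.56% (upstream) of miRNA genes called in general. Within 500 bp no member of the 11 lists passed, but few could be tested: 19 of the 28 fibroblast and mesenchymal miRNAs, 0 in both paralogue clusters and 1 to 6 in each other list. Upstream, 3 of 28 fibroblast and mesenchymal miRNAs rose, namely Mir21, Mir125b-1 and Mir22, with a median log2 ratio of 0.16 over the list and 0.02 with the GC-expected ratio. Among 15 neural miRNAs, 2 rose, the neighbours Mir132 and Mir212, at a median of 0.34, which was -0.17 with the GC-expected ratio. Of 13 blood and endothelial miRNAs, Mir146b alone rose, at a median of -0.05. None of the 10 let-7 and miR-98 genes, 8 of the miR-15/16 and miR-34 families, 10 epithelial, 7 muscle, and 20 embryonic stem cell and liver miRNAs passed upstream. Mirlet7i, of the family that represses growth-promoting messenger RNAs, had 56 anti-FLAG and 36 IgG tags upstream (adjusted p = 0.283, exact binomial test), and Mir34a, a target of p53, had 25 and 12 (adjusted p = 0.270, exact binomial test). Mir16-1, in the Dleu2 transcript, had 25 anti-FLAG and 44 IgG tags (adjusted p = 0.254, exact binomial test). Mir141, an epithelial miRNA, had 15 and 7, and the muscle miRNA Mir206 had 13 and 15.

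Enriched regions, windows of 500 bp and more with at least 10 anti-FLAG tags and 2 times the local IgG-based background at a Poisson p under 1e-05, touched a smaller share of miRNA genes than of all genes. Of 5956 regions in the genome, those within 500 bp of a miRNA gene touched 15 genes, or 0.952%, against 4.71% of all annotated genes, and those in the 5 kb upstream touched 44, or 2.79%, against 6.17%. Within 1 kb of a protein-coding TSS, 6 of 85 miRNA genes had a region within 500 bp, or 7.06%, as had 9 of the other 1491, or 0.604%. The share of protein-coding genes was 6.7%, close to that of the 85. With a GC-corrected background 3962 regions were called in the genome, which touched 6 miRNA genes within 500 bp, or 0.381%, against 1.85% of all genes, and 23 upstream, or 1.46%, against 2.88%. Of the 6 within 500 bp, 1 was among the 85 near a TSS, or 1.18%, and 5 were among the other 1491, or 0.335%, against 2.48% of protein-coding genes. The 6 were AC113316.1, AC126679.1, Mir1928, Mir3075, Mir7b and AC140340.1, named because there are few and chosen after their values were seen. With the libraries swapped, no miRNA gene had an IgG region within 500 bp. The share of all genes was not computed for the swap, so this count has no comparison.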

How the data were processed

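The deposited files hold 1 line per mapped 36-bp tag, with a strand and a score that has the same value, 512, on every line, so the unit analysed is the count of tags, taken here from the deposited tag positions. Per the labels' protocols, chromatin was fixed in 1% formaldehyde for 15 min and sheared to 300 to 500 bp. Aligner, build and filters were not given in the sources used here; tag positions were read as NCBIM37 (mm9), and 5 anti-FLAG and 3 IgG tags lay beyond a chromosome end. Samples were grouped by the antibody in the labels, 1 library each.

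Tags were moved 74 bp downstream, a shift set from the strand lag of the anti-FLAG library (149 bp, against 133 bp for IgG), and counted at that point. Every annotated gene of the autosomes and X was counted, miRNA genes with 500 bp on either side and other genes in a 1091-bp window at their 5′ end. IgG was scaled by library size (0.994). Windows with at least 10 tags were tested by an exact conditional binomial test, Benjamini-Hochberg adjusted over all genes. The GC-expected ratio came from windows over 10 kb from any gene start in classes of 2 percentage points of GC, and windows richer than the highest class took its value. Log2 ratios of single genes have 1 pseudocount tag added to each library. The calculations were tested on simulated data. The members, lists and tests were chosen with earlier results of these data known. Named genes were the miR-17-92 cluster and its paralogues, the 12 higher and 5 lower genes of smallest p within 500 bp, the 8 of smallest p upstream, calls that passed the GC correction (12 at most; those upstream were added after the data were seen) and the 2 of smallest p per list; miRNAs of one merged window are named together. 1 of the named genes is not reported here. Alternatives changed the scaling, the tag shift, the tag minimum, the flank, the uniqueness of the windows, the TSS distance, the pseudocount, the GC correction and the region threshold. Python 3.11.15, NumPy 2.4.6, SciPy 1.17.1, pandas 2.3.3, numba 0.67.0 and Matplotlib 3.10.9 were used.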

Additional observations from a re-analysis of the deposited data

How the results depend on the processing

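No paired analysis was possible because each antibody has 1 library. The count of 19 miRNA genes higher within 500 bp became 9 with at least 20 tags, 7 with 250 bp and 29 with 1000 bp on each side, and 134 at 2-fold without a test. The 1 lower gene became 2 with unmoved tags, 0 with at least 20 tags, with no tag minimum and with 250 bp, and 46 at 2-fold; the 1 GC-corrected call became 2 with at least 20 tags, 0 with no tag minimum and with 250 bp, and 92 at 2-fold. Upstream, 38 became 70 when IgG was scaled by background bins (0.909). The GC-corrected count was also 2 with unmoved tags, with at least 20 tags and with no tag minimum. Background scaling does not enter the GC-corrected test, so it could not change that count. The median log2 ratio of tested miRNA windows, 0.20, was 0.31 with background scaling, 0.62 with at least 20 tags and 0.01 with no minimum. The pooled ratio near a TSS, 2.69, was 2.02 with 1000 bp, 2.18 for a TSS within 2 kb and 1.74 with the GC correction; that of other genes, 1.10, was 1.21 with background scaling and 1.04 with the GC correction. The log2 ratio upstream of Mir17, 0.15, turned to -0.23 with the GC correction and was called in neither case (adjusted p 0.973 and 1). That correction includes the 3 empty bins, which took the value of the highest GC class. Each had 0 tags in both libraries, against 1.67 anti-FLAG and 0.365 IgG tags expected from GC. The sign of the corrected value therefore rests on bins without tags, and a value without them was not computed. The 15 miRNA genes with a region within 500 bp were 4 at a region p under 1e-07 and 6 with the GC correction. They were 0 with the libraries swapped, where the share of all genes was not computed. Over the single named genes that were called, 96 alternative values kept the call and 26 lost it in the same direction. Of the 26, 21 were with the GC correction, and no value changed sign. The cause of these shifts was not tested. Alternatives that took a gene below the tag minimum gave no value and are not in these counts. Within 500 bp, 6 genes could be tested with at least 20 tags and 5 with 250 bp, against 13 with unique windows only. At about 4 tags per library in a typical window, 1067 of 1576 miRNA genes could not be tested within 500 bp.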

Other observations

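Upstream regions that did not enter the named genes are given as values, chosen after they were seen. Mir23a, of the cluster with Mir27a and Mir24-2 on chromosome 8, had a region of 38 anti-FLAG and 7 IgG tags at chr8:86726251-86727500, with its centre 5542 bp upstream of the gene, and it was not called with a GC-corrected background. Mir7b had a region of 20 and 3 tags at chr17:56381251-56382000, and Mir216a one of 18 and 4 tags 3762 bp upstream, and both were also called with that background. Mir130b and Mir301b share a region of 12 and 2 tags at chr16:17125751-17126250, 801 bp from the TSS of 2610318N02Rik, which was called with both backgrounds.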
